A study of Mus musculus with 20 samples.

Results

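The mitochondrial genome of the mouse encodes 13 mRNAs, 2 rRNAs and 22 tRNAs, and all 37 of these genes had a row in the deposited tables, out of 52636 genes in all. The rows were taken by symbol, as those that start with mt-, and were split by symbol into rRNAs (mt-Rnr), tRNAs (mt-T) and mRNAs. Their levels were compared between ribosome-bound and total RNA, between hypoxia and normoxia, and between genotypes.

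As background, mitochondrial DNA is a circular molecule that the mitochondrial RNA polymerase copies from both strands into long transcripts. Most mRNAs and rRNAs are flanked by tRNAs, and cutting out the tRNAs frees them. The mRNAs encode core subunits of respiratory chain complexes I, III and IV and of the ATP synthase (complex V), while all other subunits come from nuclear genes. The mitochondrial mRNAs are translated by mitochondrial ribosomes inside the organelle, whereas nuclear mRNAs are translated by cytosolic ribosomes, which carry the protein L10a. In macrophages, respiratory chain activity is tied to oxygen supply and to the inflammatory state.

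RNA was measured in macrophages cultured for 6 days from fetal livers of 5 mice, at day E14.5 by the design and E14.4 by the growth protocol, in medium conditioned by L cells. Of the animals, 3 carried the knockout label (Csf1r-iCre.HuRfl/fl; KO-84, KO-94, KO-179) and 2 were controls (Csf1r-iCre.HuR+/+; WT-280, WT-281). HuR, the product of Elavl1, binds AU-rich elements in mRNAs, Csf1r-iCre acts in cells of the macrophage lineage, and all 5 animals expressed an EGFP fusion of L10a. Cells of each animal were held in hypoxia (1% O2) or normoxia (20% O2) for 18 h. Each of the 10 lysates was cleared by high-speed centrifugation and then divided for translating ribosome affinity purification through EGFP-L10a (TRAP) and for total RNA (input), and poly(A)-enriched libraries were made from both. This gave 20 libraries, so that each fraction at each oxygen level had 3 knockout-labelled and 2 control libraries. Cells of 1 animal in hypoxia and normoxia, and TRAP and input of 1 lysate, are not independent. The values were TPM, transcript levels scaled for gene length to a library total of 1000000. They carry no sequencing depth, and a value's precision rests on the replicates. TPM are shares of the RNA sequenced and say nothing of the amount per cell.

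Elavl1 measured 0.760 to 72.1 TPM in knockout-labelled and 1.14 to 40.4 TPM in control TRAP libraries, and 1.69 to 154 TPM in knockout-labelled and 2.07 to 47.3 TPM in control input libraries. Elavl1 was thus not lower in the libraries labelled knockout, so genotype directions are those of the labels; the sources used here do not give which exons are floxed, and a value over the whole gene may not read the deletion. The cells carried macrophage transcripts: 11 of 11 macrophage marker rows reached 1 TPM in TRAP and in input, with sums of 6100 to 19637 TPM in TRAP and 6840 to 16431 TPM in input. Fibroblast markers were present at 13.9 to 210.0 TPM in TRAP and 109 to 842 TPM in input, with 8 of 9 rows reaching 1 TPM in TRAP and 9 of 9 in input, and Pdgfrb at 0.0693 TPM or less in every TRAP library. Erythroid markers summed to at most 5.08 TPM in TRAP and 4.36 TPM in input, with Alas2 and Slc4a1 at 0 in every library. Hepatocyte markers summed to at most 16.7 TPM in TRAP and 41.1 TPM in input.

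In TRAP, the mitochondrially encoded RNAs lay far below their level in total RNA. Summed over all 37 genes they made up 0.0444% to 1.30% of TPM in the 10 TRAP libraries (median 0.391%), against 2.00% to 9.67% in the 10 input libraries (median 4.90%). The highest TRAP library lay below the lowest input library. The 13 mRNAs summed to 298 to 8609 TPM in TRAP and 12566 to 47537 TPM in input. The 2 rRNAs summed to 120 to 4357 TPM in TRAP and 6380 to 42399 TPM in input. The 22 tRNAs summed to 14.2 to 1666 TPM in TRAP and 638 to 6732 TPM in input, so that the ranges of this class overlapped, although TRAP was below input in 10 of 10 lysates for each class.

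**Figure D1:**
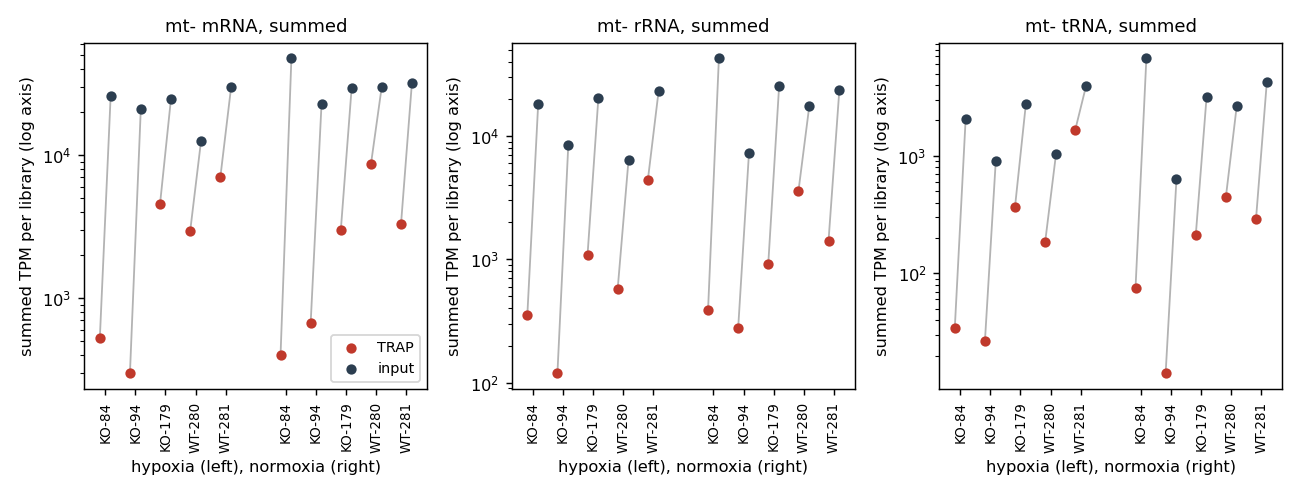
Summed TPM (log axis) of the mitochondrial mRNAs, rRNAs and tRNAs in each lysate, with TRAP in red on the left and input in dark on the right, joined by a line, for hypoxia and then normoxia. TRAP lies below input in all 10 lysates for the 3 classes, and for mRNAs the gap is widest in KO-84 and KO-94.

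The levels within total RNA are given first, since TPM is scaled by gene length and allows genes to be ranked. The most abundant member was mt-Rnr2 (the 16S rRNA of the large mitochondrial ribosomal subunit; ENSMUSG00000064339.1, MT 1094 to 2675 in GRCm38), with a median of 14973 TPM in input (range 4865 to 32377). The 12S rRNA of the small subunit, mt-Rnr1, had a median of 4343 TPM (1086 to 10022). The rRNAs carry short tails, and the libraries were selected for poly(A).

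Of the complex I subunits, mt-Nd1 had a median of 6563 TPM in input (3277 to 12346), mt-Nd6 3407 TPM (1160 to 7659), mt-Nd2 2103 TPM (577 to 4613), mt-Nd4 1608 TPM (46.5 to 4977) and mt-Nd5 1206 TPM (604 to 1571). The small complex I subunits mt-Nd3 (36.1 TPM, 4.03 to 135) and mt-Nd4l (12.9 TPM, 3.85 to 41.6) lay far lower. The mt-Nd6 gene lies on the light strand, opposite to the rRNAs and the other mRNAs. The sources used here do not say whether the libraries keep the strand, so its row can hold antisense reads. Cytochrome b of complex III, mt-Cytb, had a median of 4711 TPM (2056 to 7896). In complex IV, the catalytic subunit mt-Co1 stood at 6359 TPM (3250 to 9060), above mt-Co3 (486 TPM, 93.3 to 1333) and mt-Co2 (363 TPM, 89.6 to 892) in every input library. The ATP synthase subunits mt-Atp6 (82.6 TPM, 0.484 to 176) and mt-Atp8 (25.6 TPM, 5.66 to 40.3), which are read from 1 shared transcript, were among the 4 lowest mRNAs by median. In this order, the ranges of mt-Nd1, mt-Co1 and mt-Cytb overlapped each other, and so did those of mt-Nd2, mt-Nd4 and mt-Nd5.

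**Figure D2:**
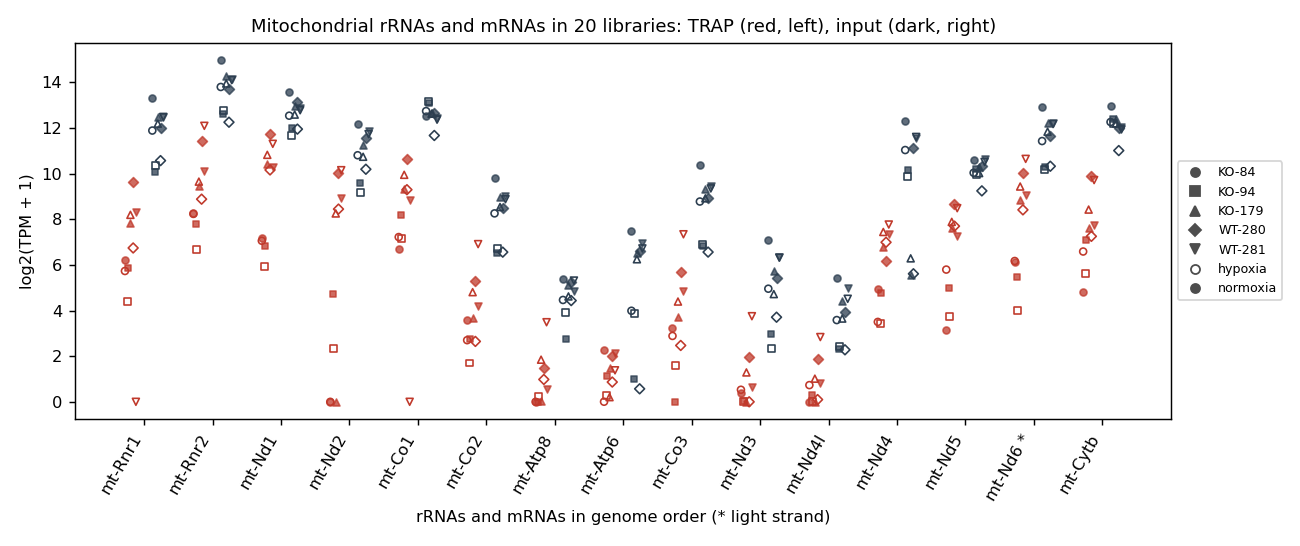
Levels of the 2 rRNAs and 13 mRNAs in genome order as log2(TPM + 1), with the 10 TRAP libraries in red to the left and the 10 input libraries in dark to the right of each name; the marker shape gives the animal and open markers are hypoxia. mt-Rnr2, mt-Nd1, mt-Co1 and mt-Cytb are high in every input library, while mt-Atp8, mt-Nd3 and mt-Nd4l are low in input and near 0 in many TRAP libraries.

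The row of mt-Atp6 cannot be taken at face value: Gm10925, which RefSeq lists as a pseudogene with mt-Atp6 as a synonym (chromosome 1, 24613971 to 24614651 in GRCm38.p6, 681 bases, the length of mt-Atp6), held 0.570 to 74.3 TPM in TRAP and 44.7 to 602 TPM in input and exceeded mt-Atp6 in all 10 TRAP and all 10 input libraries. Of the sum of both rows, mt-Atp6 had a median of 20.5% in TRAP and 22.2% in input. Reads from mt-Atp6 and its copy were not told apart here, and the sources used here do not give how the authors assigned reads that match several places. Gm29216, Gm28437 and Gm28661, without a RefSeq entry here, also followed the mitochondrial mRNA sum over the 20 libraries (r = 0.928, 0.908 and 0.916). Their mean input levels were 987, 553 and 340 TPM. Whether these rows copy other members, and whether reads of other mRNAs went to copies, was not tested. Members that overlap are likewise uncertain, with 43 bases shared by mt-Atp8 and mt-Atp6, 14 by mt-Nd5 and mt-Nd6 and 7 by mt-Nd4l and mt-Nd4.

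Of the summed TPM of the mitochondrial mRNA rows in total RNA, 5 rows held most. Reads assigned to copies such as Gm10925 are not in these shares, and their effect on the ranking was not tested. mt-Nd1 held a median of 24.2% of the summed mRNA TPM in input, mt-Co1 23.7%, mt-Cytb 17.5%, mt-Nd6 12.7% and mt-Nd2 8.74%. For mt-Nd6, sense and antisense reads were not told apart. The 5 most abundant mRNAs of a library together held 80.3% to 93.0%. The make-up was alike in most input libraries but differed in animal KO-94. In its hypoxia and normoxia input libraries mt-Co1 held 43.1% and 38.4%, against 12.4% to 26.1% in the other 4 animals, and mt-Nd1 held 15.6% and 17.7%, against 22.7% to 31.4%. mt-Nd6 held 5.52% and 5.57% in KO-94, against 10.2% to 16.1% in the others. The ratio of mt-Rnr2 to mt-Rnr1 was 5.31 and 5.75 in KO-94, against 3.06 to 3.76 in the others. The 2 KO-94 libraries thus resembled each other and lay outside the range of the other 8 in each of these measures, as a description with no test.

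**Figure D3:**
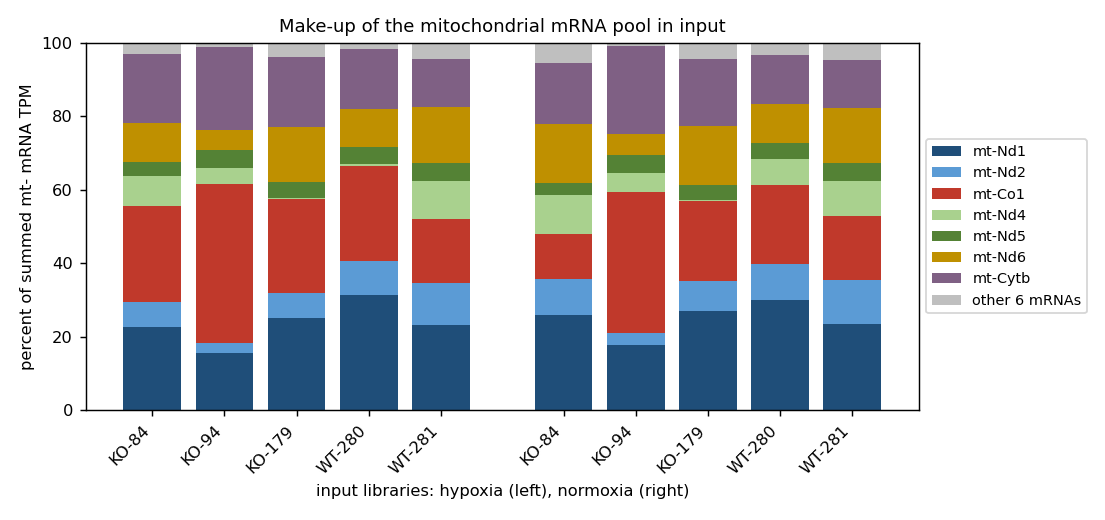
Percent of the summed mitochondrial mRNA TPM held by each of 7 mRNAs and by the other 6 together, in the 10 input libraries, for hypoxia on the left and normoxia on the right. In both KO-94 libraries mt-Co1 takes 38.4% or more and mt-Nd6 5.57% or less.

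A different library pattern was seen for mt-Nd4, the complex I subunit that shares a transcript with mt-Nd4l. In input it measured 76.9 and 46.5 TPM in hypoxia and normoxia of KO-179 and 47.8 TPM in hypoxia of WT-280, but 945 to 4977 TPM in the other 7 input libraries. Its overlapping neighbour mt-Nd4l measured 11.5, 20.4 and 3.85 TPM in those same 3 libraries, inside or just below the 3.92 to 41.6 TPM of the others. The TRAP libraries of the same lysates held 173, 111 and 126 TPM of mt-Nd4, which is above their input. In TRAP, mt-Co1 and mt-Rnr1 were listed at 0 in hypoxia of WT-281, where mt-Rnr2 measured 4357 TPM and mt-Nd1 2523 TPM, and mt-Nd2 was listed at 0 in both TRAP libraries of KO-84 and in the normoxia one of KO-179. In that KO-179 library mt-Nd1 measured 1350 TPM. Both TRAP libraries of KO-84 held little mitochondrial RNA. Their summed mRNAs were 523 TPM in hypoxia and 402 TPM in normoxia, with mt-Nd1 at 132 and 144 TPM.

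The tRNA rows differed by strand. The 8 tRNAs encoded on the light strand, opposite to the rRNAs and most mRNAs (mt-Tq, mt-Ta, mt-Tn, mt-Tc, mt-Ty, mt-Ts1, mt-Te and mt-Tp, by the textbook map), held 31.7% to 94.6% of the tRNA sum in TRAP (median 73.1%) and 63.2% to 92.1% in input (median 87.0%). The 14 tRNAs of the heavy strand held the rest. In input, mt-Te (for glutamate) had a median of 946 TPM (191 to 2382), mt-Ts1 (serine) 752 TPM (124 to 2832), mt-Tc (cysteine) 312 TPM (51.8 to 476), mt-Tl1 (leucine) 183 TPM (126 to 283) and mt-Tn (asparagine) 157 TPM (26.3 to 271). Of these 5, mt-Tl1, which lies between mt-Rnr2 and mt-Nd1, is the 1 read from the heavy strand. The other tRNAs with at least 1 TPM in some library, mt-Tv, mt-Ti, mt-Tq, mt-Tm, mt-Tw, mt-Ta, mt-Ty, mt-Td, mt-Tk, mt-Tg, mt-Tr, mt-Th, mt-Ts2, mt-Tl2, mt-Tt and mt-Tp, were lower by median in input. At the low end, mt-Tf reached 1 TPM in 1 input library, and mt-Tf and mt-Tk were listed at 0 in all 10 TRAP libraries. The tRNA genes are 59 to 75 bases long and mature tRNAs carry no poly(A) tail, so a tRNA row can hold reads from unprocessed or antisense transcripts; the sources used here do not say whether the libraries keep the strand, and sense and antisense reads cannot be told apart.

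**Figure D4:**
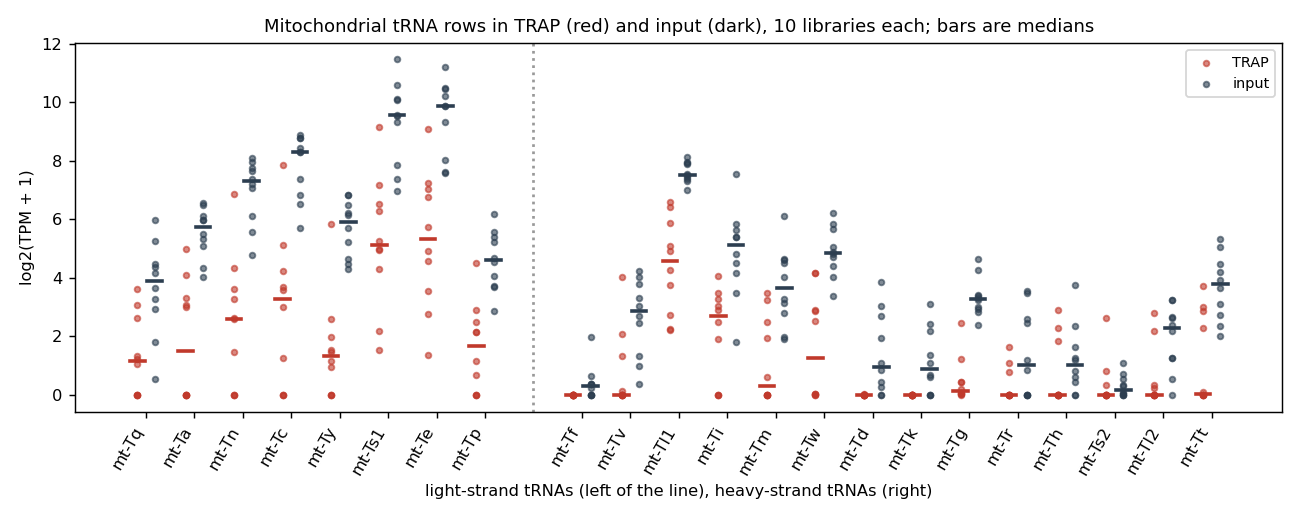
Levels of the 22 tRNA rows as log2(TPM + 1), 8 light-strand tRNAs left of the dotted line and 14 heavy-strand tRNAs right of it, with 10 TRAP libraries in red and 10 input libraries in dark and bars for medians. Among light-strand rows mt-Te and mt-Ts1 are highest in input, and among heavy-strand rows mt-Tl1 is.

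The comparison of TRAP with input asks which transcripts ride on tagged cytosolic ribosomes. Levels were tested as log2(TPM + 1) with limma, a linear model fitted to each gene whose variance estimate is moderated by those of all genes, on genes that reached 1 TPM in 2 or more libraries. Of the members, 36 passed this filter in the joint fit of 20 libraries, all but mt-Tf. In normoxia, 15 members fell in TRAP at a Benjamini-Hochberg adjusted p under 0.05 (8 mRNAs, 1 rRNA and 6 tRNAs) and none rose, where 0.229% of the 14842 genes tested were lower, 34 in all, and none was higher. In hypoxia, 7 members fell (3 mRNAs, 2 rRNAs and 2 tRNAs), where 0.0876% of genes were lower, 13 in all. Members are cut from shared long transcripts, so in these counts and those below they are not independent of each other. The members made up 44.1% of the genes called in normoxia and 53.8% of those called in hypoxia. The 19 others in normoxia included Gm13340, Gm28661, Gm10925, Gm28439, Gm28437, Gm13341, AC099934.2, Rn7s2, Rn7s1 and Snord118. The rest of them were Aplp1, P4ha2, Parva, Fkbp10, Stat3, Htra1, F2r, Pcolce and P3h4. The 6 others in hypoxia were Gm27168, Mapk13, Mfap2, Timp1, Parva and Fkbp10. The median log2 change of the 13 mRNAs was -4.20 in normoxia, where the median of all genes was -0.28, and -3.27 in hypoxia, where the median of all genes was -0.10.

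TRAP and input of 1 lysate form a pair, and with the lysate as a replicate block 27 members passed in normoxia (11 mRNAs, 2 rRNAs and 14 tRNAs), all lower in TRAP, where 1.69% of genes passed. In hypoxia 19 members passed with the block (7 mRNAs, 2 rRNAs and 10 tRNAs), where 0.357% of genes passed. Single animals decided the count without the block: the number of members passing in normoxia was 0 without KO-84 or without WT-281 and 1 without WT-280, and in hypoxia it was 0 without KO-84, KO-94 or WT-281 and 2 without WT-280. With the block it was 14 to 22 in normoxia and 5 to 18 in hypoxia over the 5 animals left out, with 5 when WT-280 was left out, and 13 members in normoxia and 4 in hypoxia passed every time.

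Directions can be read without a model. TRAP lay below input in all 10 lysates for 24 of the 36 members (11 mRNAs, 2 rRNAs and 11 tRNAs), a pattern shown by 3.24% of all genes tested. For 6 members every TRAP library lay below every input library, which held for 0.108% of all genes tested, 16 genes in all. mt-Nd4 was above input in 3 lysates and mt-Atp6 in 2. The 6 fully separated members were mt-Rnr1, mt-Rnr2, mt-Tl1, mt-Co1, mt-Nd5 and mt-Cytb.

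The smallest p among members in normoxia belonged to mt-Cytb (ENSMUSG00000064370.1, MT 14145 to 15288). In normoxia it measured 26.8 TPM in TRAP of KO-84, 137 TPM in KO-94 and 194 TPM in KO-179, and 963 and 214 TPM in TRAP of WT-280 and WT-281, against 7896, 5437, 5412, 4037 and 4219 TPM in their input. In hypoxia the TRAP values were 94.9, 48.5, 342, 151 and 838 TPM in the same order, against 4895, 4745, 4678, 2056 and 3909 TPM in input. Every TRAP value was below every input value. The log2 change was -4.63 ± 0.60 (SE) in normoxia (limma adjusted p = 0.00476) and -4.17 ± 0.60 in hypoxia (limma adjusted p = 0.00875).

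The 16S rRNA mt-Rnr2 behaved alike. Its TRAP values in normoxia were 312 TPM in KO-84, 220.4 TPM in KO-94 and 699 TPM in KO-179, and 2759.6 and 1092 TPM in WT-280 and WT-281, against 32377, 6239.6, 19631, 13299 and 17859 TPM in input. In hypoxia TRAP held 299.7, 99.8, 800.0, 469 and 4357 TPM, against 14183, 7041, 15763, 4865 and 17470.1 TPM in input. The log2 change was -4.29 ± 0.66 in normoxia (limma adjusted p = 0.00739) and -4.01 ± 0.66 in hypoxia (limma adjusted p = 0.0219). For mt-Rnr1 it was -4.29 ± 0.99 in normoxia (limma adjusted p = 0.103; 0.0387 with the block) and -6.77 ± 0.99 in hypoxia (0.00875), where the value in hypoxia draws on the 0 listed in WT-281.

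Among complex I mRNAs in normoxia, mt-Nd2 fell, with a log2 change of -5.82 (SE 1.17, limma adjusted p = 0.0421), which draws on its listed zeros and depends on the pseudocount. So did mt-Nd3 with -4.85 (SE 0.83, limma adjusted p = 0.0151), mt-Nd5 with -3.82 (SE 0.71, limma adjusted p = 0.0236) and mt-Nd4l with -3.53 (SE 0.66, limma adjusted p = 0.0236). mt-Nd6 at -3.70 ± 0.86 and mt-Nd1 at -3.35 ± 0.77 missed the threshold without the block (limma adjusted p = 0.103 and 0.101) and passed with it (0.00577 and 0.0166). mt-Nd4 at -4.20 ± 1.25 did not pass in either fit (limma adjusted p = 0.287; 0.107 with the block), and it was lower in TRAP in 7 of 10 lysates. In complex IV, mt-Co3 fell with -5.22 (SE 0.94, limma adjusted p = 0.0184) and mt-Co2 with -4.56 (SE 0.79, limma adjusted p = 0.0151), while mt-Co1 at -3.75 ± 1.11 did not pass (limma adjusted p = 0.287; 0.0795 with the block). In complex V, mt-Atp8 fell with -4.21 (SE 0.59, limma adjusted p = 0.00526), and mt-Atp6 at -4.04 ± 1.08 passed with the block (limma adjusted p = 0.213; 0.0393 with the block).

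In hypoxia, beside mt-Cytb and both rRNAs, mt-Co1 fell with a log2 change of -6.04 (SE 1.11, limma adjusted p = 0.0493), again drawing on the 0 in WT-281, and mt-Atp8 with -3.14 (SE 0.59, limma adjusted p = 0.0493). The other 10 mRNAs lay between -4.18 (mt-Nd2) and -2.28 (mt-Nd4l) with adjusted p of 0.0808 or more by limma, and mt-Co2, mt-Co3, mt-Nd3 and mt-Nd6 passed with the block (smallest limma adjusted p 0.000331, for mt-Co3). Without the TRAP library of WT-281 in hypoxia, an alternative chosen after its zeros were seen, 14 members passed in hypoxia rather than 7, and 31 of 14713 genes rather than 13 of 14842. For the difference between hypoxia and normoxia in the change of TRAP against input, no member passed limma's interaction test (smallest adjusted p 1.00; 0.0% of 14842 genes passed, with 353 at an unadjusted p under 0.05, none of them a member).

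Of the tRNAs with the highest mean, mt-Tc fell with a log2 change of -5.25 (SE 0.88, limma adjusted p = 0.0151), mt-Ty with -4.78 (SE 0.70, limma adjusted p = 0.00526), mt-Tn with -4.70 (SE 0.78, limma adjusted p = 0.0151) and mt-Ta with -3.68 (SE 0.64, limma adjusted p = 0.0151) in normoxia. mt-Te at -4.19 ± 1.02 and mt-Ts1 at -4.30 ± 1.00 passed with the block alone (limma adjusted p = 0.134 and 0.103 without it, 0.000825 and 0.000265 with it), as did mt-Ti at -3.28 ± 0.83 (0.158 and 0.00897) and mt-Tl1 at -3.44 ± 0.74 (0.0606 and 0.0272). In hypoxia these 8 tRNAs lay between -3.95 (mt-Tc) and -1.73 (mt-Ti). The tRNAs passing in hypoxia were mt-Tg, for glycine, and mt-Tw, for tryptophan. The single member with a positive value, mt-Ts2 in normoxia (0.11 ± 0.42), was under 6 TPM in every library.

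What was left in TRAP differed between members. As a share of its input in the same lysate, mt-Nd1 had a median of 16.9% in TRAP (1.16% to 37.7%), mt-Nd5 12.5% (0.512% to 34.2%), mt-Nd6 10.5% (0.890% to 34.7%) and mt-Cytb 4.33% (0.340% to 23.9%). mt-Co3 kept 2.95% (0% to 24.7%), mt-Atp8 1.51% (0% to 26.4%) and mt-Nd3 0.625% (0% to 15.8%). Within the mRNA sum, mt-Nd1 thus held 37.1% in TRAP against 24.2% in input by median, and mt-Cytb 9.32% in TRAP against 17.5% in input. These ranges over lysates overlap, and the differences between members were not tested.

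The nuclear genes of the same complexes gave a contrast. Summed per lysate, 37 nuclear complex I genes had 95.3% to 147% of their input TPM in TRAP (median 136%), 39 nuclear genes of complexes II to V 79.7% to 145% (132%), and 78 mitoribosome protein genes 107% to 161% (120%), above input in every lysate. None of 37 complex I genes, of 39 genes of complexes II to V or of 78 mitoribosome genes passed in either oxygen condition without the block. With it, 2, 3 and 3 of them passed in normoxia, where 1.69% of genes did, and 0, 1 and 0 in hypoxia, where 0.357% did. Their median log2 changes in normoxia were 0.22, 0.24 and 0.17, and in hypoxia 0.16, 0.05 and 0.00. These lay above the medians of all genes, -0.28 in normoxia and -0.10 in hypoxia. Examples are Cox6a1, a complex IV subunit, with a log2 change of 0.53 ± 0.34 in normoxia, Ndufa2, an accessory complex I subunit, with 0.61 ± 0.33, and Mrpl33, a protein of the large mitoribosomal subunit, with 0.73 ± 0.40 (limma adjusted p = 0.634, 0.559 and 0.563). None passed among 14 genes of mitochondrial transcription and DNA maintenance (normoxia median -0.31), 32 genes of mitochondrial RNA processing (-0.20), 14 mitochondrial translation factors (-0.32) or 17 mitochondrial tRNA synthetases (-0.60) without the block (1 RNA processing gene passed in normoxia with it), beside a median of all genes of -0.28 in normoxia. The 76 cytosolic ribosomal protein genes had a median of 0.19 in normoxia with none passing.

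**Figure D5:**
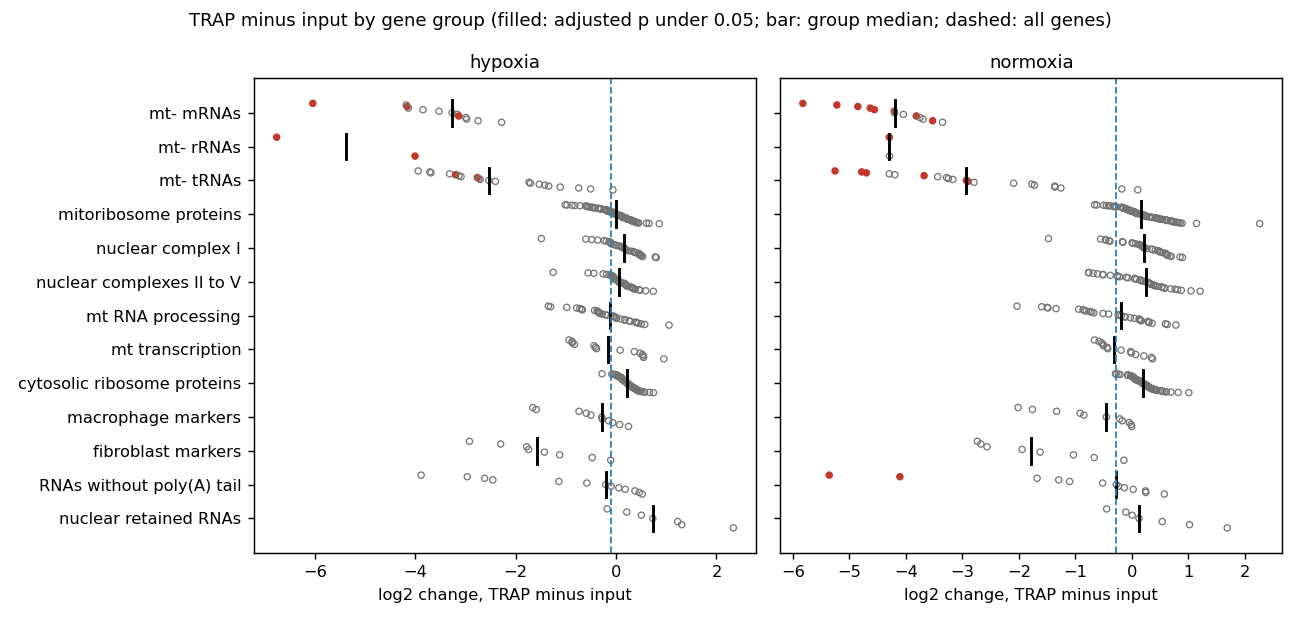
Log2 change of TRAP minus input for single genes by group, hypoxia on the left and normoxia on the right; filled red points pass at an adjusted p under 0.05 without the block, black bars are group medians and the dashed line is the median of all genes. The medians of the 3 mitochondrially encoded classes lie to the left of those of the nuclear mitochondrial groups. In normoxia the latter run from -0.31 (transcription) to 0.24 (complexes II to V), where all genes have -0.28.

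Other gene lists were set beside the members. The 8 fibroblast markers tested were all lower in TRAP in both oxygen conditions (median log2 change -1.78 in normoxia and -1.59 in hypoxia), with none passing without the block and 5 and 3 passing with it, and their sum in TRAP was 8.63% to 38.6% of input (median 22.3%). The macrophage marker sum had 65.6% to 126% (89.9%) and is mostly Lyz2 and Cd68, with log2 changes of -0.01 and 0.00 in normoxia. Over the list, 11 of 11 macrophage rows were lower in TRAP in normoxia (median -0.45) and 9 of 11 in hypoxia (-0.29), with none passing without the block and 2 in normoxia with it. In bulk samples, fewer cells of a type and less RNA per cell cannot be told apart, and the part of fibroblast-like cells in the loss of mitochondrial RNA was not tested. P4ha2, Fkbp10, Pcolce, P3h4, Mfap2 and Timp1, called lower in TRAP without the block, are not on the fibroblast list. The called genes were not sorted by cell type. Of 13 tested RNAs without a poly(A) tail, Rn7s2 and Rn7s1, RNAs of the signal recognition particle, fell in normoxia with log2 changes of -5.36 and -4.11 (limma adjusted p = 0.0151 and 0.0421). In hypoxia 5 of the 13 were higher and 8 lower in TRAP. There 4 passed with the block, counted in either direction, where 0.357% of genes did. The list as a whole had 62.5% to 111% of its input TPM in TRAP (median 88.5%). The list's rows with the highest mean were Hist1h2bc and Hist1h1c. They had medians of 193 and 163 TPM in TRAP, beside 455 TPM for the sum of the list. RNAs retained in the nucleus, led by Malat1, were higher in TRAP than in input in 8 of 10 lysates (median 270.1% of input), at 27.5% to 303% of input in knockout-labelled and 325% to 2374% in control lysates. Of 7 tested, 1 passed in hypoxia with the block.

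The amount left in TRAP differed between animals. Summed mitochondrial mRNA in TRAP in hypoxia was 2.00% of input for KO-84, 1.42% for KO-94 and 18.7% for KO-179, and 23.5% and 23.2% for WT-280 and WT-281. In normoxia it was 0.845%, 2.95% and 10.1% in the knockout-labelled animals and 28.5% and 10.4% in the controls. KO-84 and KO-94 were thus low in both conditions, whereas KO-179 was close to WT-281 in normoxia. The fibroblast marker sum was at 8.63%, 12.7% and 35.0% of input in hypoxia and 13.1%, 14.8% and 27.6% in normoxia in the knockout-labelled animals in the same order, against 20.9% and 38.6% in hypoxia and 23.7% and 27.6% in normoxia in WT-280 and WT-281. It was low in KO-84 and KO-94 too. Its order differed from that of the mRNAs among the controls and between KO-179 and WT-280 in both conditions, and between KO-84 and KO-94 in hypoxia. In normoxia KO-179 and WT-281 were close in both measures. Over all 20 libraries, log2(TPM + 1) of Col1a2, Col1a1 and Acta2 of the fibroblast list correlated with the mRNA sum at 0.936, 0.922 and 0.918. They were among the rows most like it, beside Gm13340 (0.946), Serpinh1 (0.937) and Eea1 (0.915). These values take in the difference between TRAP and input. The part of fibroblast-like cells in the difference between animals was not tested.

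In direct comparison of genotypes within TRAP in normoxia, all 13 mRNAs and both rRNAs were lower in knockout-labelled libraries, with a median log2 difference of -1.67 for the mRNAs beside 0.05 for all genes. None passed (smallest limma adjusted p 0.759 for mt-Nd2; 0.0% of 13522 genes passed, with 704 at an unadjusted p under 0.05, of which 11 were members). For 19 of the 33 members tested every knockout-labelled library lay below every control library, which held for 9.67% of all genes tested, and for no member did it lie above, which 9.85% of genes did. The members are cut from shared long transcripts, so here too, and in the counts below, they are not independent of each other. mt-Nd6 measured 68.1, 42.6 and 463 TPM in knockout-labelled libraries, against 1025 and 526 TPM in control libraries, with a log2 difference of -2.72 ± 1.29 (limma adjusted p = 0.921). mt-Nd1 measured 144, 112 and 1350.2 TPM, against 3416 and 1259 TPM, so that KO-179 lay within the controls, with a log2 difference of -2.89 ± 1.24 (limma adjusted p = 0.921). mt-Rnr2 differed by -2.25 ± 0.93 (limma adjusted p = 0.921). The median of the mRNAs was -2.57 without WT-281 and -1.25 without WT-280. Other lists were lower as well in knockout-labelled TRAP in normoxia: 6 of 6 fibroblast markers (median -1.82), 6 of 6 RNAs retained in the nucleus (-0.93) and 32 of 37 nuclear complex I genes (-0.50), none passing, and their part in the difference was not tested.

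In hypoxia TRAP, 12 of 13 mRNAs were lower in knockout-labelled libraries (median log2 difference -1.71, all genes 0.06; -0.70 without WT-281 and -2.97 without WT-280), all but mt-Co1, which is listed at 0 in WT-281, and none passed by limma (0.0% of 13522 genes; 585 at an unadjusted p under 0.05, 15 of them members). In the same comparison 6 of 6 fibroblast markers (median -1.95) and 6 of 6 RNAs retained in the nucleus (-0.95) were lower, none passing, and their part in the difference was not tested. Groups did not overlap for 7 of 33 members, all lower in the knockout-labelled libraries, where 6.94% of all genes showed that pattern and 9.36% the opposite one. In input the direction was not stable. In normoxia 11 of 13 mRNAs were lower in knockout-labelled libraries with a median of -0.35, which was 0.27 without KO-94 and -1.10 without KO-84. In hypoxia 7 of 13 were higher with a median of 0.11, which was -1.04 without WT-280 and 0.94 without WT-281, and -0.04 under quantile normalization, where the median of all genes moved by -0.36. Every knockout-labelled library lay above every control library for mt-Cytb in normoxia, where 9.42% of genes showed this, and for mt-Cytb, mt-Co1 and mt-Tl1 in hypoxia, where 18.4% did. The opposite held for 3 tRNAs in normoxia (5.75% of genes) and 4 in hypoxia (4.48% of genes). None of 35 members passed in either (0.0% of 13901 genes by limma; 304 in normoxia and 901 in hypoxia at an unadjusted p under 0.05, with 1 and 0 members). Whether the genotype difference is larger in TRAP than in input was not tested.

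Hypoxia was next compared with normoxia. In total RNA, all 13 mRNAs and both rRNAs averaged lower in hypoxia. The median log2 change of the mRNAs was -0.76, beside -0.15 for all genes. It was -0.22 without the hypoxia input of WT-280 and -0.46 without the normoxia input of KO-84. No member passed (smallest limma adjusted p 0.999, and 0.515 with the animal as a block). By limma 0.0% of 13901 genes passed, with 321 at an unadjusted p under 0.05. Of the members, mt-Tt alone was among these 321, and it was higher in hypoxia (log2 change 1.72 ± 0.51). Of the 20 tRNAs tested, 8 averaged higher and 12 lower. The size of the mRNA change differed by animal. The summed mRNAs held 26124 TPM (KO-84), 21019.5 TPM (KO-94) and 24556 TPM (KO-179) in hypoxia, against 47537, 22711 and 29545 TPM in normoxia, and 12566 and 30075.5 TPM in hypoxia of WT-280 and WT-281, against 30204.5 and 31856 TPM in normoxia. The fraction in hypoxia was thus 0.550, 0.926 and 0.831 of normoxia in the knockout-labelled animals and 0.416 and 0.944 in the controls, below 1 in 5 of 5. The summed rRNAs gave 0.424, 1.14 and 0.806 in the knockout-labelled animals and 0.368 and 0.982 in the controls, so KO-94 went the other way. The input of KO-84 in normoxia had the highest and that of WT-280 in hypoxia the lowest mitochondrial share of all input libraries, and these were the 2 animals with the largest difference.

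mt-Nd1 measured 5929 TPM in hypoxia and 12346 TPM in normoxia of KO-84, 3277 and 4031 TPM of KO-94, and 6129.6 and 7947 TPM of KO-179. In WT-280 and WT-281 it measured 3942 and 6997 TPM in hypoxia and 9064 and 7496 TPM in normoxia. It was lower in hypoxia in 5 of 5 animals, with a log2 change of -0.61 ± 0.38 (limma adjusted p = 0.999). mt-Cytb was lower in 5 of 5 animals too, at 0.509 to 0.927 of normoxia (-0.45 ± 0.30). mt-Co1 averaged -0.23 ± 0.30. The change of mt-Nd4 (-1.50 ± 1.35) rested on the low input library of WT-280 in hypoxia and was 0.0018 without it. Of 35 members tested, 6 were lower in hypoxia in all 5 animals (mt-Nd1, mt-Nd2, mt-Nd3, mt-Nd5, mt-Nd6 and mt-Cytb) and mt-Tw was higher, where 7.02% and 2.41% of all genes tested were.

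In TRAP, the mRNAs had no common direction in hypoxia. The summed mRNAs in hypoxia were 1.30 times normoxia in KO-84, 0.444 times in KO-94 and 1.54 times in KO-179, and 0.342 and 2.11 times in WT-280 and WT-281. The median log2 change of the 13 mRNAs was 0.01 (-0.08 under quantile normalization), beside 0.01 for all genes, and was -0.76 without WT-281 and 1.17 without WT-280. Of 33 members, mt-Atp6 was lower in all 5 animals and none was higher, where 2.8% and 3.45% of all genes were. No member passed by limma (0.0% of 13522 genes), with 339 genes at an unadjusted p under 0.05. The 3 members among these were mt-Rnr1 (-3.07 ± 1.06), which draws on the 0 in WT-281, mt-Atp6 (-1.20 ± 0.43) and mt-Tm (1.22 ± 0.54). Of 18 tRNAs tested, 13 averaged higher and 5 lower in hypoxia (median 0.52). The interaction of genotype with oxygen passed for no member in input or in TRAP (0.0% of genes in each by limma; 261 and 284 genes at an unadjusted p under 0.05, with 2 and 1 members).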

How the data were processed

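RNA was measured as poly(A)-enriched libraries from 10 lysates of 5 animals, TRAP and input of each. The authors deposited 1 value per gene and library, read as TPM because each library sums to 1000000 over 52636 genes; the sources used here do not name the tool that gave the TPM. The submitters' processing notes name HISAT, DESeq2 and GRCm38 without roles. Each table also holds 10 ratio columns, which were not used. Mitochondrial coordinates are RefSeq's for GRCm38.p6, in which 37 of 37 members were found.

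limma 3.58.1 in R 4.3.3 was fitted to log2(TPM + 1) with 1 mean per group, for genes that reached 1 TPM in 2 or more libraries (13522 in TRAP, 13901 in input, 14842 in the joint fit), two-sided, with an empirical Bayes trend. Benjamini-Hochberg p-values were adjusted over all genes of each of 11 comparisons. Of the members, 35 passed the filter in input, 33 in TRAP and 36 jointly. Fold changes are on the log2(TPM + 1) scale, which understates the change of low genes. Averages over genotypes weight them equally. The labels name animals, so libraries of a group come from separate animals; no batch is given.

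Animal numbers pair the libraries, since the same number in the labels is the same animal and TRAP and input share a lysate. Across genes, deviations from group means in the same animal correlated at 0.28 to 0.755 between oxygen conditions in input, 0.233 to 0.579 in TRAP, and 0.15 to 0.645 between TRAP and input. The deviations of the 2 controls mirror each other, so WT-280 and WT-281 give the same value by construction. Different animals were not correlated for comparison, so the pairing rests on the labels. The alternatives were animal or lysate as a replicate block, no filter, pseudocounts of 0.1 and 5, quantile normalization, TPM rescaled without the mitochondrial rows, limma without the trend, each animal left out and 2 single input libraries left out. Leaving out 1 TRAP library, and the block with each animal left out, were added after the data were seen. With a control left out, some groups hold 1 library, whose variation is assumed to equal that of other groups. All mRNAs and rRNAs are named with values, as are 8 tRNAs, highest mean first, and of each other list up to 4 passing genes or, with none passing, up to 2 with the highest mean; tRNAs and other genes named beyond this, Gm10925 among them, were chosen after their values were seen. The members and 14 gene lists were chosen with earlier results of these data known. The fit was tested on simulated data. Tables were prepared in Python 3.11.15 (pandas 2.3.3, numpy 2.4.6) and plots drawn with matplotlib 3.10.9.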

Additional observations from a re-analysis of the deposited data

How the results depend on the processing

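The direction of TRAP against input did not depend on the settings tried for the 13 mRNAs, the 2 rRNAs and the 8 most abundant tRNAs, all lower in TRAP under each, but the number of genes passing did. In normoxia, 34 genes passed, 7 with quantile normalization and 251 with the replicate block; over all settings that leave out a library or animal, block included, the count ranged from 0 (without KO-84) to 128 (with the block, without WT-281). With the block it was 44 without KO-179, 39 without WT-280, 30 without KO-84 and 42 without KO-94, fewer than 251 for each animal left out, and without the block it was 39 without the hypoxia TRAP library of WT-281. In hypoxia, 13 passed, 21 without a filter, 1 with a pseudocount of 0.1, 5 with quantile normalization, 53 with the replicate block and 0 (without KO-84) to 50 over the removals, with 31 without the hypoxia TRAP library of WT-281. With the block, it was 35 without KO-179, 36 without WT-280, 50 without WT-281, 22 without KO-84 and 25 without KO-94. The block gave 0 for every other comparison it could be fitted to. Members passing in normoxia numbered 15, and 4 with quantile normalization, 5 without a filter, 13 and 16 with pseudocounts of 0.1 and 5, and 4 without the normoxia input of KO-84; in hypoxia 7, and 3, 2, 1, 4 and 3. The median of the mRNAs ranged from -4.62 to -3.58 in normoxia and from -4.25 to -3.01 in hypoxia over the removals. Quantile normalization moved the median of all genes by 0.29 in normoxia, and relative to it the mRNAs stood at -3.91, against -3.92 without it; the shift was 0.11 in hypoxia and 0.14 for hypoxia against normoxia in input.

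Elsewhere 0 genes passed. Without a filter, 14 passed for the interaction of fraction with oxygen, and between genotypes 10 in hypoxia TRAP, 2 in normoxia TRAP, 1 in hypoxia input and 1 in normoxia input. A pseudocount of 5 gave 1 in each TRAP comparison of genotypes, and one of 0.1 gave 1 for genotype by oxygen in TRAP. Removals gave 0 to 2 for genotype in hypoxia TRAP, 0 to 1 in normoxia TRAP, 0 to 1 in hypoxia input, 0 to 2 in normoxia input, 0 to 1 for hypoxia in input and 0 to 1 for fraction with oxygen. The genotype median of the mRNAs was -2.76 with a pseudocount of 0.1 in normoxia TRAP, and over the removals -2.57 to -1.25 there, -2.97 to -0.70 in hypoxia TRAP, -1.10 to 0.27 in normoxia input and -1.04 to 0.94 in hypoxia input. For hypoxia in input, mt-Atp8 ranged from -0.45 to 0.20 (above 0 without WT-280, its hypoxia input, KO-84 or its normoxia input) and mt-Nd4 from -2.88 to 0.0018 (without the hypoxia input of WT-280). The causes were not tested. The depth is unknown, so members near 0 TPM in TRAP cannot be told from absent ones.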
